A study of Mus musculus with 22 samples.

Results

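Male mice lacking PPARα were compared with wild-type males kept at 28 °C, a temperature near thermoneutrality for the mouse, by expression arrays of inguinal white fat. The comparison held 12 arrays, 6 per genotype and 1 per mouse, of 22 arrays in the series. They were chosen by their labelled genotype and housing. All 23521 probe sets with a single gene symbol were tested (22180 genes). The 880 probe sets whose genes lie on chromosome 15, which carries Ppara, were counted apart from the other 22641.

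Both genotypes were on a C57BL/6 background, and the null line was labelled as backcrossed for more than 10 generations. The mice were 3 to 4 months old when they entered 28 °C for 5 weeks, with chow and water freely available. Those compared here then stayed at 28 °C, labelled as 10 days of housing, while the others passed through 1 week at 21 °C and 10 days at 5 °C (5 arrays per genotype). The 2 genotypes came as separate strains from a supplier and were bred further at 1 facility, and the sources used here do not say whether wild-type and null mice were littermates. A difference between genotypes can therefore not be told apart from a difference between the 2 lines. The lack of PPARα was in the whole animal, not in adipocytes alone. The labels give 10 mice housed per group, without saying how the arrayed mice were picked from them.

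PPARα, encoded by Ppara, is a nuclear receptor that is activated by fatty acids and pairs with a retinoid X receptor on DNA. It is best known in liver, where it raises genes of fatty acid oxidation during fasting, and in brown fat, where it is abundant. White adipocytes express more of its relative PPARγ, the main regulator of fat cell identity. At thermoneutrality the inguinal depot holds mostly white adipocytes, with its heat-producing programme low.

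The 12 arrays were alike in scale. Array medians over all 22 arrays were 4.16 to 4.25 on the log2 scale, and any pair of the 28 °C arrays correlated at 0.978 to 0.989 over probe sets. Arrays carry no read depth, so the number of mice limits the precision. Markers of mature adipocytes were high in both genotypes: Adipoq (adiponectin) averaged 10.20 ± 0.08 (SD, n = 6) in wild type and 10.18 ± 0.08 (SD, n = 6) in null, and Fabp4, the adipocyte fatty acid binding protein, 12.65 ± 0.09 and 12.56 ± 0.03. In a bulk sample, fewer cells of a type and less RNA per cell cannot be told apart.

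The targeted gene itself did not separate the groups. Ppara read 4.42, 4.74 and 5.00 (lowest, median and highest of 6) in wild type and 4.14, 4.91 and 5.45 in null fat. The difference was 0.16 (SE 0.22, 95% interval -0.29 to 0.61, limma adjusted p = 0.957), and the groups overlapped. The sources used here do not say where the probes lie relative to the deletion, so these values are no check of the genotype labels. Ucp1, the uncoupling protein of heat-producing fat, read 4.50, 5.41 and 5.80 in wild type and 4.99, 5.25 and 6.47 in null (0.20, SE 0.23, adjusted p = 0.939). Nnt, part of which is missing in the C57BL/6J strain, differed by -0.01 (SE 0.07, adjusted p = 0.992).

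Few genes differed between the genotypes at 28 °C. With limma on the log2 values and Benjamini-Hochberg adjustment over all 23521 probe sets, 41 probe sets, each of a different gene, passed an adjusted p of 0.05 (0.174%), 10 higher in null fat (0.0425%) and 31 lower (0.132%). These are the called genes below. On chromosome 15 there were 20 (2.27% of the 880), 3 higher (0.341%) and 17 lower (1.93%). Elsewhere there were 21 (0.0928% of the 22641), 7 higher (0.0309%) and 14 lower (0.0618%). A change beyond 2-fold was seen in 16 called genes, 4 higher and 12 lower. At an unadjusted p under 0.05 there were 1573 probe sets (6.69%), 863 higher (3.67%) and 710 lower (3.02%), and on chromosome 15 alone 107 of 880 (12.2%).

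Among genes not on chromosome 15, the interferon-induced gene Ifi44l rose most. Its log2 values were 1.67, 1.83 and 2.32 (lowest, median, highest) in wild-type fat and 4.41, 4.79 and 5.93 in null fat, a difference of 3.06 (SE 0.19, adjusted p = 3.29e-09). Every null mouse stood above every wild-type mouse by a wide margin. All 6 wild-type values lay below the lower quartile of every array (2.83 to 2.91), where array signals are compressed, so the ratio between the groups is poorly bounded. Ptgfr, the receptor for prostaglandin F, starts upstream of Ifi44l on the same strand with 35.72 kb between the genes. It read 4.75, 5.02 and 5.36 in wild type and 5.69, 5.93 and 6.40 in null (0.91, SE 0.13, adjusted p = 0.000561), again without overlap. Of the 13 other probe sets tested within 1 Mb of Ifi44l, that of Ptgfr was the only one called.

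The RefSeq sequence upstream of these 2 starts is shown because the pair held the largest rise of the comparison. It is set beside Isg15, a standard interferon-induced gene that did not pass, and Fabp1, a PPARα target. Each run is the 250 bases before the annotated start, 5′ to 3′ on the gene's strand, on assembly GRCm38.p6. Ifi44l lies at chr3:151762892-151763141, Ptgfr at chr3:151837529-151837778 and Isg15 at chr4:156200819-156201068, all on the minus strand, and Fabp1 at chr6:71199629-71199878 on the plus strand. Capitals mark a match to either of the motifs described next.
Ifi44l: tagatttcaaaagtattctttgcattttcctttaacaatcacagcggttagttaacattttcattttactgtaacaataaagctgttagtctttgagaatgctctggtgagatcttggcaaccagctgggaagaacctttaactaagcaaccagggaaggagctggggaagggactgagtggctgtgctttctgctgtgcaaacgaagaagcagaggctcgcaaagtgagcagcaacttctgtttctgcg
Ptgfr: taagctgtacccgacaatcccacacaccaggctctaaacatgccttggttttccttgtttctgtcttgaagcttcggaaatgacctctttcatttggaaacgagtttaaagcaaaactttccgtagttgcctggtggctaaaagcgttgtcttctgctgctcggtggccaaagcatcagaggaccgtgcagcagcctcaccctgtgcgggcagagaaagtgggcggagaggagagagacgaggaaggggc
Isg15: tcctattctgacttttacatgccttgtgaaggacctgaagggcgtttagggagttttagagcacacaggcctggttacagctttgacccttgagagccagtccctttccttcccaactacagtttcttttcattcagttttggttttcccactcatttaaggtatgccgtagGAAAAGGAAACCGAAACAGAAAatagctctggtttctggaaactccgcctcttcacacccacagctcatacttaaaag
Fabp1: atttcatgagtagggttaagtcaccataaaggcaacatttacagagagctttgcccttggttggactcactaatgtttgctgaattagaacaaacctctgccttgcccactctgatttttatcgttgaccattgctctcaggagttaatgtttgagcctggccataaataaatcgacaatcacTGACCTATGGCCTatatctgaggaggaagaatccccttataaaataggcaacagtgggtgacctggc
The letters GAAANNGAAA, the core of an interferon-stimulated response element, were searched on both strands with overlaps allowed. They occurred in 3.46% of 27025 RefSeq promoter windows of this length, and in 10 of 24 windows (41.7%) of the interferon list described below. Isg15 held 3 overlapping matches, and its expression differed by 0.08 (SE 0.12). The windows of Ifi44l and Ptgfr held none. Of the 34 called genes with a window, 2 (5.88%) had a match: Apobec3 and Ranbp3l, both on chromosome 15 and both lower in null fat. The direct repeat read by PPAR and retinoid X receptor pairs, searched as AGGTCANAGGTCA on both strands, was in 0.0407% of windows. The looser AGGNCANAGGNCA was in 0.4% of windows and in 1 of 43 of the PPARα target list, Fabp1, which read 2.03, 2.30 and 3.19 in wild type and 2.11, 2.44 and 3.05 in null fat. Both Fabp1 medians lay below the lower quartile of every array (2.83 to 2.91), where array signals are compressed. Its values therefore say little about a difference. No called gene's window held either form of the repeat. A match is only a run of letters in a reference sequence, and a window without one says nothing about the factor elsewhere in the gene.

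A second adjacent pair rose on chromosome 4. Alad encodes aminolevulinate dehydratase, an enzyme of heme synthesis, and read 7.17, 7.36 and 7.51 in wild type against 8.22, 8.32 and 8.58 in null fat (1.00, SE 0.08, adjusted p = 8.34e-08). Hdhd3, a hydrolase-like gene 3.78 kb from Alad, read 2.87, 3.39 and 3.55 against 4.00, 4.28 and 4.97 (1.09, SE 0.19, adjusted p = 0.00997). In both genes the 6 null mice stood above the 6 wild-type mice. All wild-type values of Hdhd3 lay below every array median (4.16 to 4.25), the lowest near the lower quartiles (2.83 to 2.91). The size of its rise is therefore less certain. Alad was the only call among the 12 measured genes of heme synthesis and breakdown. Alas1, the rate-limiting first enzyme of the pathway, came next at 0.35 (SE 0.11, adjusted p = 0.429), and the list's median was -0.03 beside 0.01 over all probe sets.

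The remaining called increases outside chromosome 15 stood alone in their neighbourhoods. Ppwd1, a peptidyl-prolyl isomerase of the spliceosome on chromosome 13, read 6.80, 6.94 and 7.21 in wild type and 7.61, 7.75 and 7.97 in null (0.79, SE 0.08, adjusted p = 6.18e-06). Lrg1, a secreted leucine-rich glycoprotein of the acute phase response, read 8.84, 9.08 and 9.27 against 9.45, 9.57 and 9.76 (0.52, SE 0.09, adjusted p = 0.00431). The groups overlapped in neither gene. The seventh was a gene known only by a clone name, A930033H14Rik on chromosome 10 (1.01, SE 0.13, adjusted p = 0.000157). No other tested gene within 1 Mb of these 3 was called.

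Of the 14 called decreases outside chromosome 15, 5 lay in the distal part of chromosome 9. Cmtm8, a chemokine-like membrane protein gene, read 4.79, 5.24 and 5.42 in wild type and 3.56, 3.89 and 4.31 in null (-1.31, SE 0.14, adjusted p = 8.74e-06). Stt3b, a catalytic subunit of the oligosaccharyltransferase that glycosylates proteins in the endoplasmic reticulum, lies 398.32 kb away and read 9.72, 9.89 and 10.16 against 9.15, 9.29 and 9.47 (-0.61, SE 0.07, adjusted p = 3.52e-05). Every null mouse was below every wild-type mouse in both. Fyco1, an adaptor that moves autophagosomes along microtubules, fell by 0.56 (SE 0.07, adjusted p = 0.000131). Lars2, the mitochondrial leucyl-tRNA synthetase 326.82 kb from Fyco1, fell by 0.45 (SE 0.08, adjusted p = 0.0155), and Lrrfip2, which encodes a protein that binds flightless, by 0.44 (SE 0.08, adjusted p = 0.0179). The 5 genes span chr9:111117546-123851899 (GRCm38.p6), where no gene was called higher.

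Adjacent pairs were also seen among decreases on chromosomes 19 and 6. Ide, the insulin-degrading enzyme, read 9.23, 9.43 and 9.55 in wild type and 8.14, 8.36 and 8.57 in null fat (-1.07, SE 0.08, adjusted p = 2.4e-08). Its neighbour 4931408D14Rik, a clone-named gene 4.65 kb away, fell by 1.14 (SE 0.13, adjusted p = 2.64e-05). On chromosome 6, Pyurf read 6.15, 6.29 and 6.36 against 5.33, 5.73 and 5.88 (-0.61, SE 0.10, adjusted p = 0.004). Lancl2, a member of the lanthionine synthetase-like family 10.38 kb from Pyurf, fell by 0.43 (SE 0.08, adjusted p = 0.0341). None of these 4 genes overlapped between the groups. In all, 12 of the 21 called genes off chromosome 15 had another called gene within 1 Mb, and each such pair moved in the same direction. The share of all probe sets with a called gene that near was not counted. Whether 12 of 21 is more than the background was therefore not tested.

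Among the single decreases were 2 well-known genes. Alb, serum albumin, read 8.39, 8.89 and 9.16 in wild type and 7.23, 7.54 and 8.00 in null fat (-1.27, SE 0.18, adjusted p = 0.00073). Cox7c, a subunit of cytochrome c oxidase in the respiratory chain, read 5.11, 5.25 and 5.51 against 4.00, 4.11 and 4.38 (-1.13, SE 0.12, adjusted p = 1.31e-05). The groups were separate in both genes. The Cox7c values in null fat lay near the array medians (4.16 to 4.25). The mean of the measured cytochrome oxidase subunits per mouse was 7.62 to 7.89 in wild type and 7.33 to 7.73 in null. The median difference of the 15 subunits was -0.01, beside 0.01 over all probe sets. At an unadjusted p under 0.05, 3 of them were lower and none higher (20%, beside 6.69% of all probe sets). How well the Cox7c probe set follows its gene was not tested. The other 14 measured subunits of cytochrome oxidase were not called. Of those, Cox6a2, the form of striated muscle, differed by -1.35 (SE 0.57, adjusted p = 0.653), with overlap between the groups.

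Smaller falls were measured for Dguok, the mitochondrial deoxyguanosine kinase (-0.34, SE 0.07, adjusted p = 0.0259), Mctp1, a membrane protein with calcium-binding domains (-0.36, SE 0.07, adjusted p = 0.0475), and Atraid, named for its induction by retinoic acid (-0.32, SE 0.06, adjusted p = 0.0198). In these 3 genes the groups did not overlap, but the calls were near the threshold. Across the 21 called genes off chromosome 15, all 21 had groups that did not overlap. Over all probe sets this held for 132 (0.561%). The calls were chosen on these values, so the separation is a description.

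**Figure D1:**
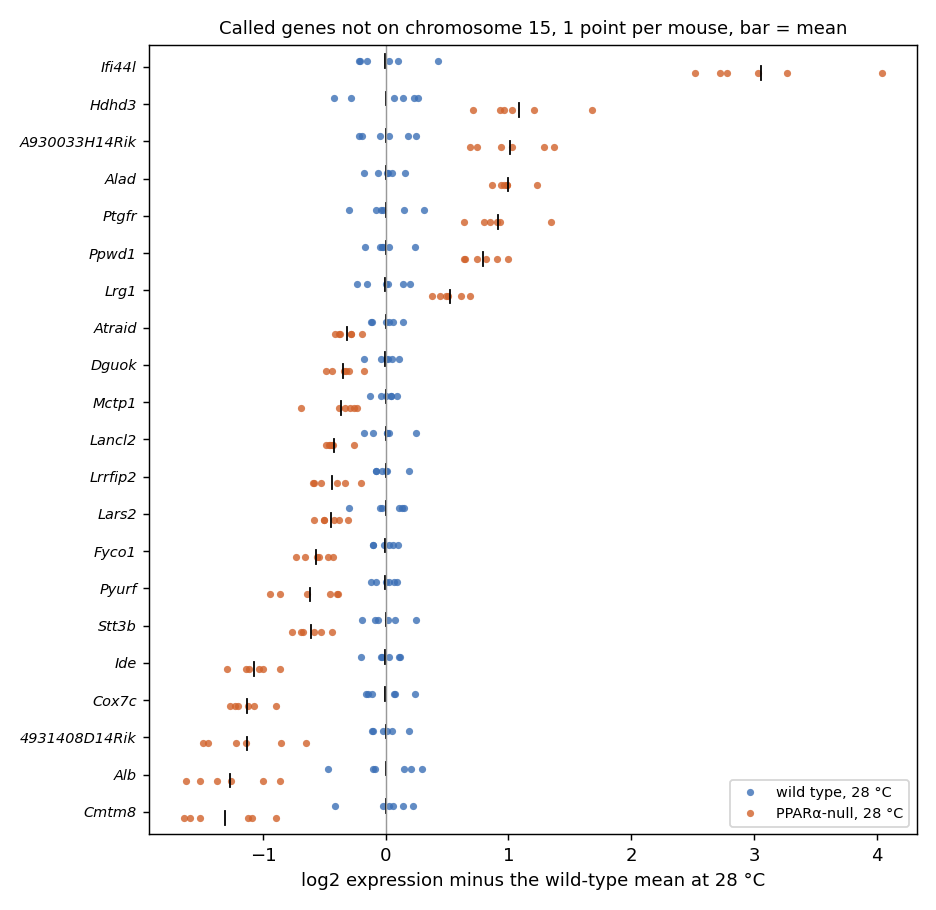
Log2 expression of the 21 called genes not on chromosome 15 in each of 12 mice at 28 °C, relative to the wild-type mean of the gene (horizontal axis). Points are mice (blue wild type, orange PPARα-null) and black bars are group means. Ifi44l stands apart with a mean difference of 3.06, and in all 21 genes the colours do not overlap.

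On chromosome 15 most calls were decreases. Cyb5r3, the NADH-cytochrome b5 reductase, had the smallest adjusted p of these: it read 10.67, 10.95 and 11.00 in wild type and 9.36, 9.65 and 9.89 in null (-1.25, SE 0.09, adjusted p = 2.4e-08). Cmbl, a hydrolase, read 7.85, 7.96 and 8.06 against 6.53, 6.75 and 7.08 (-1.16, SE 0.10, adjusted p = 3.56e-07). Ift27, a component of the transport machinery of cilia, read 6.46, 6.68 and 6.74 against 5.19, 5.58 and 5.83 (-1.08, SE 0.12, adjusted p = 1.31e-05). In these 3 genes every null mouse was below every wild-type mouse.

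Pnpla3, a lipid droplet protein of the patatin-like phospholipase family, read 9.58, 10.23 and 10.47 in wild type and 8.09, 9.27 and 9.63 in null fat (-1.12, SE 0.21, adjusted p = 0.0201). The lowest wild-type mouse and the highest null mouse overlapped. When single arrays were left out, the adjusted p was 0.00834 to 0.0745, and it stayed under 0.05 in 7 of 12 fits. Of the other 22 measured genes of triglyceride synthesis and lipolysis, none was called. With Pnpla3 the list had 23 genes and a median of 0.05. At an unadjusted p under 0.05, 5 were higher and 1, Pnpla3, lower (26.1%, beside 6.69% of all probe sets). Plin4, a lipid droplet coat protein, differed by 0.31 (SE 0.09, adjusted p = 0.316), Dgat2, which makes triglyceride, by 0.30 (SE 0.09, adjusted p = 0.395), and the lipolysis inhibitor G0s2 by 0.47 (SE 0.18, adjusted p = 0.576).

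Cbx7, a Polycomb chromatin protein, read 6.50, 6.88 and 7.15 in wild type and 5.68, 5.84 and 6.26 in null (-0.99, SE 0.11, adjusted p = 1.73e-05). Apobec3, a cytidine deaminase that restricts retroviruses, read 7.54, 7.92 and 8.71 against 7.01, 7.22 and 7.31 (-0.81, SE 0.15, adjusted p = 0.0179). The annotated spans of these genes overlap each other, and that of D730005E14Rik (-1.55, SE 0.18, adjusted p = 3.93e-05) overlaps Apobec3, so their signals may not be independent. Ranbp3l, a nuclear export factor, fell by 1.14 (SE 0.18, adjusted p = 0.00262). Atpsckmt, which methylates a subunit of ATP synthase, fell by 0.74 (SE 0.12, adjusted p = 0.00245), and Cyp2d22, a cytochrome P450, by 0.67 (SE 0.12, adjusted p = 0.0121). The long non-coding RNA Snhg18 (-0.70, SE 0.12, adjusted p = 0.00778) contains the small nucleolar RNA Snord123 (-1.12, SE 0.12, adjusted p = 1.31e-05). The falls of Rabl2, a GTPase of cilia (-0.60, adjusted p = 0.0113), and Ttc38 (-0.37, adjusted p = 0.04) completed the calls within 5 Mb of Ppara. The last 3 decreases were Lynx1, a modulator of nicotinic receptors (-0.64), the translation factor subunit Eif3l (-0.39) and 4930556M19Rik (-0.67).

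Increases on chromosome 15 were 3. Rpl3, a ribosomal protein gene, read 7.54, 7.82 and 8.41 in wild type and 10.15, 10.22 and 10.33 in null (2.32, SE 0.13, adjusted p = 5.29e-10). This came from 1 of 3 probe sets for Rpl3. The other 2 differed by -0.21 (SE 0.10, adjusted p = 0.74) and -0.18 (SE 0.16, adjusted p = 0.897), and ribosomal protein genes have near-identical copies, so the gene's own change is uncertain. Of the other 60 measured ribosomal protein genes none was called, and the list's median was 0.03. Cdh9, a cadherin, rose by 0.69 (SE 0.12, adjusted p = 0.00952) and Dap, a death-associated protein gene, by 0.50 (SE 0.08, adjusted p = 0.00237). In both, the highest wild-type mouse stood above the lowest null mouse: 5.90 against 5.89 for Cdh9 and 9.25 against 9.18 for Dap. With Pnpla3 they were the only called genes on this chromosome whose groups overlapped, leaving 17 of 20 without overlap. Groups did not overlap in 26 of the 880 probe sets of chromosome 15, and in 132 of all 23521 (0.561%). The calls were chosen on these values, so this separation too is a description.

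**Figure D2:**
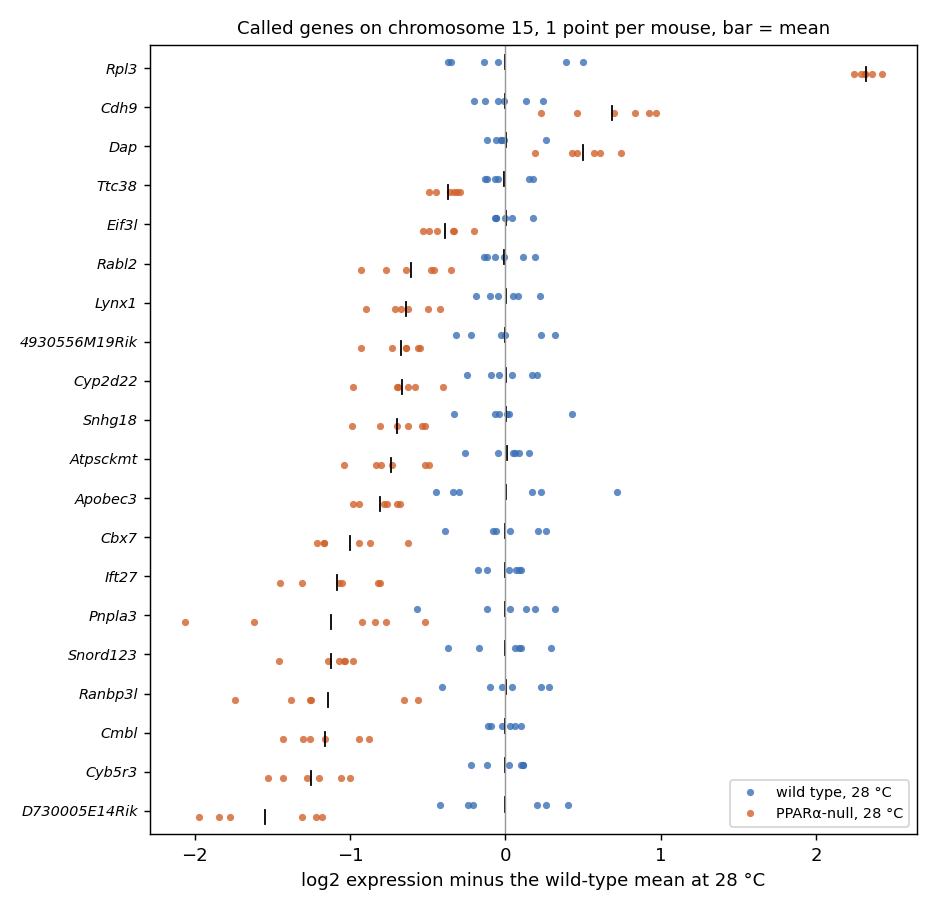
Log2 expression of the 20 called genes on chromosome 15 in each of 12 mice at 28 °C, relative to the wild-type mean of the gene (horizontal axis). Points are mice (blue wild type, orange PPARα-null) and black bars are group means. The null means lie below the wild-type means in 17 genes and above them in Rpl3, Cdh9 and Dap.

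The chromosome 15 calls were not limited to the surroundings of Ppara. Within 5 Mb of the gene 5 of 153 probe sets were called (3.27%), and at 5 to 10 Mb 6 of 181 (3.31%). The share was 1 of 280 at 10 to 20 Mb (0.357%) and 0 of 78 at 20 to 40 Mb, where 9 had an unadjusted p under 0.05 (11.5%). Beyond 40 Mb it was 8 of 188 (4.26%). These 8 include Ranbp3l, 76.75 Mb away, Cdh9, and a cluster of Dap, Cmbl, Atpsckmt, Snhg18 and Snord123 at 53.53 to 54.52 Mb from Ppara. Called genes thus ran from 8967949 to 89591960 on the chromosome, with none between Lynx1, 11.02 Mb from Ppara, and that cluster. No other chromosome had a call rate above 0.378%, the value of chromosome 9, and 9 autosomes and both sex chromosomes had no call.

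**Figure D3:**
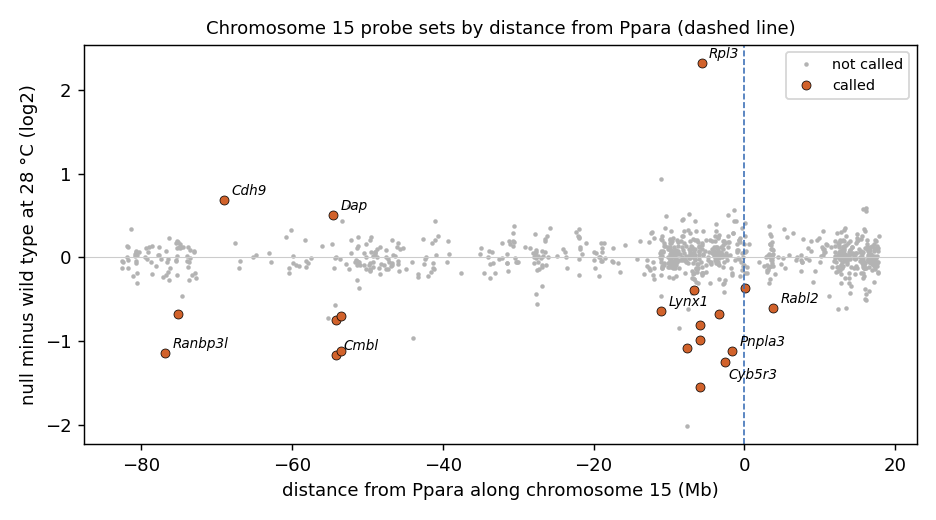
Difference between null and wild-type means at 28 °C (log2, vertical axis) of the 880 chromosome 15 probe sets by distance from Ppara in Mb (horizontal axis; dashed line at Ppara). Orange points are the 20 called probe sets, and grey points were not called. No called probe set lies between Lynx1, 11.02 Mb from Ppara, and Snhg18 and Snord123, 53.53 Mb from it.

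Genes that PPARα is known to drive gave no call at 28 °C. At the call rate of all probe sets, a list of 50 genes would seldom hold one. Of 57 listed targets 50 were measured, none was called (beside 0.174% of all probe sets), and their median difference was -0.04 (0.01 over all probe sets). At an unadjusted p under 0.05, 7 were lower and 3 higher, which is 20% of the list beside 6.69% of all probe sets (3.02% lower and 3.67% higher). The 95% interval of the difference lay within 1 log2 unit of 0 for all 50 and within 0.5 for 35. Eci2, an enoyl-CoA isomerase of fatty acid oxidation, had the smallest p: it read 7.49, 7.68 and 7.82 in wild type and 7.31, 7.41 and 7.67 in null fat (-0.23, SE 0.07, adjusted p = 0.409). Slc25a20, the carnitine carrier of mitochondria, differed by -0.34 (SE 0.11, adjusted p = 0.445). Angptl4, a secreted inhibitor of lipoprotein lipase, differed by -0.48 (SE 0.17, adjusted p = 0.548) and Txnip, a regulator of glucose uptake, by -0.30 (SE 0.10, adjusted p = 0.457). In these 4 genes the groups overlapped. Pdk4, the kinase that shuts down pyruvate oxidation, had the lowest difference of the list at -0.51 and G0s2 the highest at 0.47. The mean of the list per mouse overlapped between the genotypes, at 7.63 to 7.79 in wild type and 7.46 to 7.81 in null.

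Enzyme lists of fatty acid oxidation held no call (beside 0.174% of all probe sets), and at that rate lists this short would seldom hold one. Mitochondrial fatty acid oxidation had 19 measured genes with a median of -0.11, 4 of them lower and none higher at an unadjusted p under 0.05 (21.1%, beside 6.69% of all probe sets). Peroxisomal beta-oxidation had 17 with a median of -0.13, 3 lower and none higher (17.6%), led in p by Decr2, a dienoyl-CoA reductase (-0.23, SE 0.09, adjusted p = 0.589). Ehhadh, the bifunctional peroxisomal enzyme and a classical PPARα target, read 6.76, 7.37 and 7.79 in wild type and 6.34, 6.87 and 7.35 in null (-0.47, SE 0.19, adjusted p = 0.623). The 2 lists share members with the target list. PPAR receptors and coregulators had 14 genes, a median of 0.05 and no call, and Pparg differed by 0.11 (SE 0.10, adjusted p = 0.899). Thermogenic and brown-fat genes had 17, a median of -0.02 and no call, with Slc27a2, a very long chain acyl-CoA synthetase, lowest at -0.53 (SE 0.23, adjusted p = 0.688).

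Lipid synthesis and adipokine genes also held no call beside Pnpla3. De novo lipogenesis had 15 genes and a median of -0.18. At an unadjusted p under 0.05, 4 were lower and none higher (26.7%, beside 6.69% of all probe sets). These 4 were the elongase Elovl6 (-0.60, SE 0.25, adjusted p = 0.653), the acetyl-CoA synthetase Acss2 (-0.59, SE 0.24, adjusted p = 0.623), the carboxylase Acaca (-0.45, SE 0.18, adjusted p = 0.615) and the desaturase Fads1 (-0.24, SE 0.12, adjusted p = 0.743). The spread between null mice was wide here, since the list's mean per mouse ran from 9.29 to 10.25 in null and 9.73 to 10.16 in wild type. Cholesterol synthesis had 14 genes, a median of -0.03 and no call. Of 15 adipokine and white-adipocyte genes, Rbp4, which carries retinol in blood, came nearest to a call at 9.54, 9.62 and 9.70 in wild type against 9.16, 9.26 and 9.50 in null (-0.34, SE 0.07, adjusted p = 0.0638). Its groups did not overlap. The estrogen sulfotransferase Sult1e1 differed by 0.55 (SE 0.19, adjusted p = 0.522).

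The lists around the other called genes held 1 call each. These lists were chosen with earlier results of these data known, so such calls are a description (0.174% of all probe sets were called). In the interferon response list Ifi44l was the 1 called gene of 30, the median was 0.05, and no other member had an unadjusted p under 0.05. Rsad2, an antiviral enzyme, came next (0.17, SE 0.08, adjusted p = 0.748), and Mx1 was lowest at -0.24. In the acute phase and interleukin-1 list Lrg1 was the 1 call of 19 and the median was 0.03. At an unadjusted p under 0.05, 2 members were higher and 2 lower (21.1%, beside 6.69% of all probe sets). Itih4 was lowest at -0.45 and Saa3 highest. Saa3, an amyloid protein made by inflamed fat, read 3.32, 3.81 and 3.88 in wild type and 3.44, 4.81 and 5.93 in null (0.99, SE 0.26, adjusted p = 0.293), so null mice lay both within and above the wild-type range. Ptgfr was the 1 call of 17 genes of prostaglandin synthesis and receptors (median -0.02), and the thromboxane synthase Tbxas1 differed by -0.22 (SE 0.08, adjusted p = 0.484). The circadian clock list had no call among 16 genes and no unadjusted p under 0.05.

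Markers of skeletal muscle had lower values in null fat, short of the threshold. Of 17 muscle markers none was called. At an unadjusted p under 0.05, 12 were lower in null fat (70.6%, beside 3.02% of all probe sets). The median difference of the 17 markers was -1.60 (-0.47 at 5 °C). Their mean per mouse was 6.92, 8.15 and 8.99 in wild type and 5.59, 6.58 and 8.21 in null, with overlap. Pvalb, a calcium buffer of fast muscle on chromosome 15, was lowest of all probe sets (-2.01, SE 0.77, adjusted p = 0.598). Mast cell markers had 6 of 10 lower at an unadjusted p under 0.05 (60%, beside 3.02% of all probe sets). Their median was -0.36 at 28 °C and 0.14, the opposite sign, at 5 °C. Mcpt4, a mast cell protease, differed by -0.49 at 28 °C (SE 0.14, adjusted p = 0.361). The means of the mast cell list per mouse were 4.70 to 5.29 in wild type and 4.57 to 4.81 in null. B and T cell markers varied widely in both genotypes, from 4.43 to 7.58 in wild type and 4.61 to 8.06 in null, with a median difference of 0.23. With the muscle and the lymphocyte means as covariates, 34 of the 41 calls passed again, while Mctp1, Pnpla3, Rabl2, Hdhd3, Atraid, Dguok and Lrrfip2 did not.

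The medians of the other cell type lists lay within 0.05 of 0. Mature adipocyte markers had a median of 0.02 over 8 genes and means per mouse of 10.83 to 11.02 in wild type and 10.87 to 11.07 in null. Macrophage markers had a median of -0.05 over 16 genes, with Clec10a lowest at -0.35 (SE 0.11, adjusted p = 0.407). Endothelial markers had a median of 0.04 over 12, with 3 higher and 1 lower at an unadjusted p under 0.05 (33.3%, beside 6.69% of all probe sets): Flt1, Vwf and Tie1 at 0.23, 0.18 and 0.20, and the tight junction gene Cldn5 at -0.50 (SE 0.17, adjusted p = 0.522). The median was -0.02 over 14 fibroblast and matrix markers, -0.03 over 9 nerve and Schwann cell markers, and -0.01 over 11 epithelial markers. No member of these lists was called. Of the red blood cell markers 1 was measured, Slc4a1 (0.01).

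**Figure D4:**
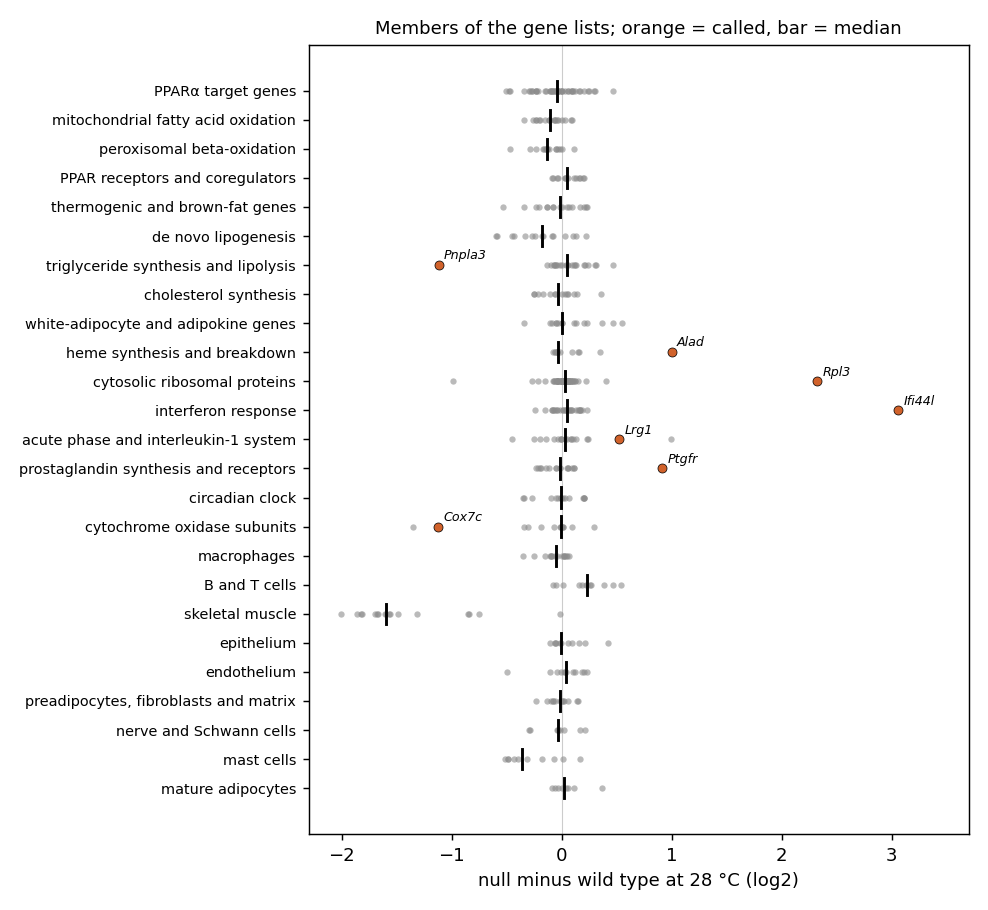
Difference between null and wild-type means at 28 °C (log2, horizontal axis) of each measured gene in 25 lists of functions and cell types. Grey points were not called, orange points were called, and black bars are list medians. The 7 called members stand alone in their lists, and skeletal muscle has the lowest median, -1.60.

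The 10 arrays at 5 °C gave the same genotype contrast in other mice. Of the 41 genes called at 28 °C, 39 had the same sign at 5 °C (95.1%, beside 53.5% of the probe sets not called). An unadjusted p under 0.05 with the same sign was found for 36 (87.8%, beside 3.47%), while over all probe sets 6% had such a p in either direction. Groups at 5 °C were separate in the same direction for 31 (75.6%, beside 0.677%), and over all probe sets the 5 °C groups were separate in either direction for 1.19%. The 5 °C arrays alone gave 18 calls (0.0765%), and all 18 were among the 41 called at 28 °C, which is 100% of the 5 °C list and 43.9% of the 28 °C list. Of these 18, 9 lay on chromosome 15. The fit of 28 °C borrowed its spread from all 22 arrays, so the 12 arrays were also fitted alone: this gave 30 calls (0.128%), of which all 30 had the same sign at 5 °C and 14 were called there.

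Several of the 18 genes called at both temperatures are given first. At 5 °C Ifi44l differed by 2.35 (SE 0.14, adjusted p = 4.71e-05), from 1.65 to 2.32 in wild type to 3.99 to 4.54 in null mice. Ptgfr differed by 1.27 (SE 0.14, adjusted p = 0.00383), Alad by 0.90 (SE 0.09, adjusted p = 0.00316), Ppwd1 by 0.72 (SE 0.09, adjusted p = 0.00853), Ide by -0.97 (SE 0.09, adjusted p = 0.00114) and Cmtm8 by -1.37 (SE 0.13, adjusted p = 0.00126). On chromosome 15 Cyb5r3 differed by -1.16 (SE 0.08, adjusted p = 0.000176), Pnpla3 by -1.08 (SE 0.15, adjusted p = 0.0294) and the Rpl3 probe set by 2.15 (SE 0.11, adjusted p = 1.83e-05). These genes kept their direction without overlap between the 5 °C groups. The median size of the 41 differences was 0.79 at 28 °C and 0.66 in the same direction at 5 °C, and values chosen for passing a test at 28 °C tend to be larger there.

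Other called genes had smaller differences at 5 °C. Cbx7 differed by -0.46 there (SE 0.09) beside -0.99 at 28 °C, Ift27 by -0.67 (SE 0.13) beside -1.08, Ranbp3l by -0.61 (SE 0.16) beside -1.14, and Apobec3 by -0.43 (SE 0.12) beside -0.81. Alb read 8.45 to 9.26 in wild type and 8.04 to 9.22 in null mice there (-0.28, SE 0.21, adjusted p = 0.921), so the groups overlapped. Dguok differed by 0.00 (SE 0.08), Mctp1 by 0.16 (SE 0.08), Lrg1 by 0.17 (SE 0.10) and Rabl2 by -0.20 (SE 0.12). The change of the genotype difference between the temperatures was tested in the fit of all arrays. For Mctp1 it was 0.52 (SE 0.11, unadjusted p = 0.000108, adjusted p = 0.616), and for Alb 0.99 (SE 0.27, unadjusted p = 0.00138, adjusted p = 0.847). With limma 0 of 23521 probe sets passed this test, the smallest adjusted p was 0.616, and 1202 had an unadjusted p under 0.05 (5.11%). Of the 41 called genes 8 had such a p: Mctp1, Alb, Dguok, Cbx7, Lrg1, Rabl2, Ifi44l and Ift27. These genes were chosen for their differences at 28 °C, which enter this test. The 95% interval of the change lay within 1 log2 unit of 0 for 38 of the 41.

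**Figure D5:**
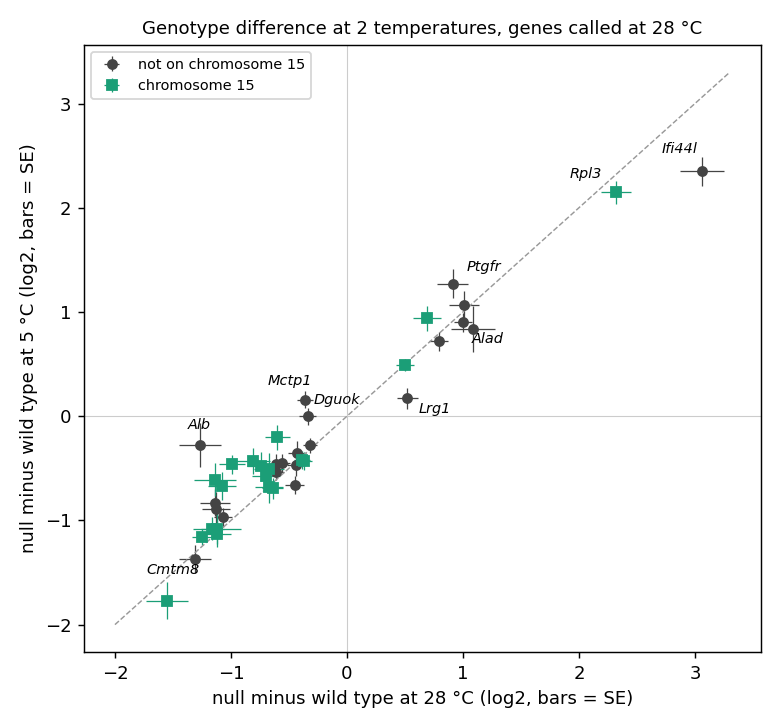
Difference between null and wild-type means (log2) of the 41 genes called at 28 °C, at 28 °C (horizontal axis) and in separate mice at 5 °C (vertical axis). Bars are standard errors, the dashed line marks equal differences, and squares are chromosome 15 genes. Of the 41 points 39 have the same sign on both axes, and Alb, Lrg1, Dguok and Mctp1 lie near 0 at 5 °C.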

How the data were processed

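Each deposited value is the log2 expression of a probe set, which the authors computed with RMA per the submitters' processing notes. The sources used here do not state its version. They were used as deposited. Of 41345 probe sets, 23521 had 1 gene symbol in the platform annotation, 1814 several and 16010 none. Positions came from a RefSeq gene table (GRCm38.p6), and 196 of the 23521 had none and were counted with those not on chromosome 15. Sequences are RefSeq's.

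limma (3.58.1, R 4.3.3) fitted the 4 groups of 22 arrays (18 residual and 3.36 prior degrees of freedom), with Benjamini-Hochberg adjustment over all 23521 probe sets. An adjusted p under 0.05 was a call. The same code was tested on simulated data. The 5 °C contrast was fitted on its 10 arrays alone. In the 26 lists the brightest probe set stood for a gene, and lists were described by counts and medians only.

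The members and lists were chosen with earlier results of these data known. The naming rule took Ppara, Ucp1 and Nnt, up to 15 called genes per direction off chromosome 15, up to 10 on it plus those within 5 Mb of Ppara, and in each list the called members and up to 4 with the smallest p. Lynx1, Eif3l, Snord123, the 4 clone-named genes, list members at the ends of a range or known as markers, Isg15 and Fabp1 were named after their values were seen. Alternatives were other scalings, filters on dim probe sets, gene-level values, variance models, array weights, other samples in the fit, a replicate block, cell type covariates, Ppara windows and leaving out each array. Figures were drawn with matplotlib 3.10.9.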

Additional observations from a re-analysis of the deposited data

Results flagged for a closer look

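In 128 groups of 28 °C values (called and fixed genes and list means), 9 held 1 mouse far from the others by Dixon's test, which chance gives in about 1 of 20 groups. In wild-type fat, replicate 4 was high for Dap (9.25, others 8.87 to 8.98) and Lrrfip2 (6.60, others 6.33 to 6.42). Replicate 2 was low for Cmtm8 (4.79, others 5.18 to 5.42), and replicate 3 for the mean of cholesterol synthesis genes (6.76, others 7.11 to 7.27). In null fat, replicate 4 was low for Mctp1 (5.43, others 5.74 to 5.89) and replicate 3 for Nnt (5.62, others 5.88 to 5.95). Replicate 3 was high for Alad (8.58, others 8.22 to 8.34), replicate 5 for Lancl2 (5.89, others 5.66 to 5.72), and replicate 1 for the mean of ribosomal protein genes (7.71, others 7.46 to 7.53).

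Probe sets without a single gene symbol, which the comparison above did not use, also differed between the genotypes. When they entered the fit and the adjustment, 15 probe sets with no symbol were called, 7 higher and 8 lower, with differences from 1.97 to -1.52. Another 2 with several symbols were called, 1 higher (1.56) and 1 lower (-0.44).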

How the results depend on the processing

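The 28 °C count of 41 calls ranged from 30 (the 12 arrays alone) to 49 (variance trend with robust estimation), and from 31 to 43 without single arrays. With every probe set of the array tested, an alternative added after seeing the data, it was 53, and 36 of the 41 were called again. None of the 41 called genes reversed its direction in these fits, and 26 of the 41, 14 of them off chromosome 15, were called in each other fit that tested them and without any single array. Called in only 2 to 8 of the 12 fits that left out an array were 11 genes: Mctp1, 4930556M19Rik, Eif3l, Apobec3, Pnpla3, Ttc38, Atraid, Lancl2, Dguok, Lrrfip2 and Lars2 (highest adjusted p 0.0599 to 0.142). Each array's removal lost 4 to 10 calls, with wild-type replicate 4 losing most. The chromosome 15 count of 20 became 5, 11 and 12 when limited to 5, 10 and 20 Mb around Ppara. The 5 °C count of 18 became 31 with trend and robust estimation, 33 in the fit of all 22 arrays, and 14 to 17 without single arrays. With the replicate block it became 4, and the 28 °C count 34. Same-numbered mice of the 2 genotypes at 28 °C correlated at -0.244 to 0.234 in their deviations from the group means. Of these, 1 of 6 matched its own number best. These values show no clear pairing by replicate number at 28 °C, and pairing of the 5 °C arrays was not tested. Low signal limits the wild-type level of Ifi44l, which lay below the lower quartile of every array.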
